A study of Rattus norvegicus with 10 samples.

Results

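The genes described here encode the protein subunits of oxidative phosphorylation, the 5 enzyme complexes of the mitochondrial inner membrane, in the neurointermediate lobe of the rat pituitary. Members were chosen by symbol (the Nduf, Sdh, Uqcr, Cyc1, Cycs, Cox4 to Cox8 and Atp5 families) among probe sets that the platform annotation pairs with exactly 1 symbol. Each gene was read by its probe set with the highest mean signal over all 10 arrays. This gave 80 genes of 14217 with such a probe set, 35 for complex I, 4 for complex II, 8 for complex III, 17 for complex IV and 16 for complex V. Of the 80, 76 were among the brightest 60% of probe sets and were tested, and the other 4 (Cox4i2, Cox6a2, Cox7b2 and Cox8b) were not. Cycs, Uqcrb, Ndufa10, Ndufs5, Cox7a2, Atp5mc1 and Atp5mc2 are on probe sets that carry several symbols, 9 such probe sets in all for these families, and are not analysed here. The symbol rule also takes in genes that are not fixed subunits: the pseudogene Cox6c-ps1, the ATP synthase inhibitor Atp5if1, the supercomplex factor Cox7a2l, and Ndufa4, which later work placed in complex IV, with its relative Ndufa4l2.

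The samples were neurointermediate lobes of male Sprague Dawley rats, 10 to 12 weeks of age. One group had been dehydrated for 3 days, and the control group is described in the labels only as control animals. There were 5 arrays a group, each with the pooled RNA of 5 animals from a group of its own per the design text, so the spread between arrays is a spread between pools. The sample labels name the neurointermediate lobe, which holds the neural lobe with its axon endings, pituicytes and vessels beside the melanotrophs of the intermediate lobe, whereas the text on the study's design speaks of the hypothalamic supraoptic nucleus. In such a mixed tissue, a change in the number of cells of a type and a change of RNA per cell cannot be told apart.

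Complex I takes electrons from NADH and complex II, which is also the succinate dehydrogenase of the citrate cycle, takes them from succinate. Complex III passes them to cytochrome c and complex IV to oxygen, while complexes I, III and IV pump the protons that drive ATP synthase, complex V. Most complexes combine a few catalytic subunits with many small accessory ones, and in complexes I, III, IV and V some subunits come from mitochondrial DNA, whereas all subunits of complex II are nuclear. Secretory and neuroendocrine tissues depend on this pathway for the ATP used in peptide synthesis, granule acidification and ion pumping.

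In all, 8 subunits were higher in the dehydrated group and none was lower, and the changes were small, between 1.21-fold and 1.38-fold. They were Ndufa11, Ndufb2, Ndufa2, Ndufb5 and Ndufb1 of complex I, Uqcrq and Uqcr10 of complex III, and Atp5po of complex V. That is 8 of 76 tested members (10.5%; limma, adjusted p under 0.05), where 1.68% of all 18625 tested probe sets were called higher and 0.784% lower (2.46% either way). The other 68 members did not pass. In 64 of 76 members (84.2%) the log2 change was above 0, against 47.4% of all tested probe sets, and 42 members (55.3%) had an unadjusted p under 0.05 with a higher mean, against 8.7%. None had such a p with a lower mean. All 5 dehydrated arrays lay above all 5 control arrays in 11 members (14.5%) and below them in none, where 2.78% of all tested probe sets lay above and 1.81% below (4.59% either way). Most members were brighter than the average probe set, and the shares called higher and lying above were larger among bright probe sets, as given below. Of 45 tested cytosolic ribosomal protein genes, 91.1% lay above 0 and 82.2% had an unadjusted p under 0.05 with a higher mean. Of 73 mitochondrial ribosomal protein genes, the same shares were 84.9% and 31.5%.

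**Figure D1:**
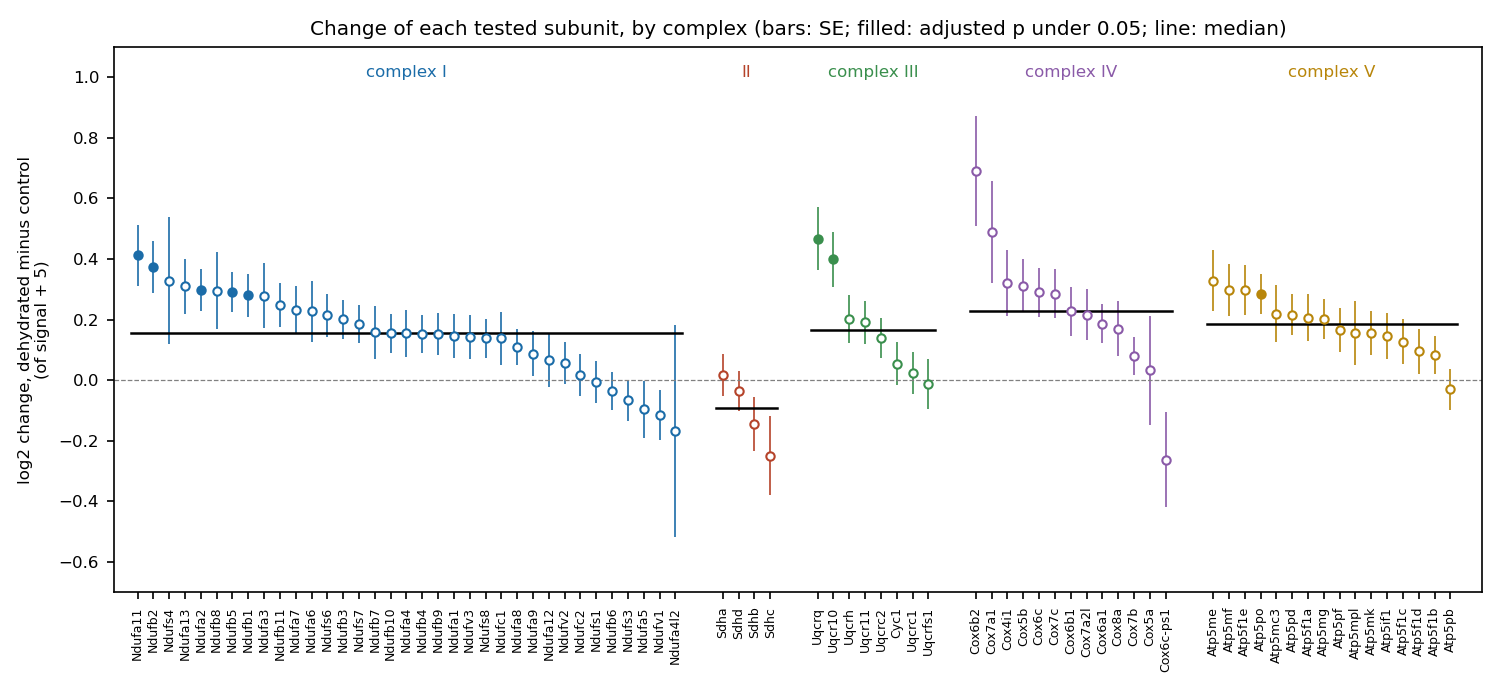
Log2 change of each of the 76 tested genes (dehydrated minus control, of signal + 5) with its standard error, grouped by complex and sorted within it; filled points passed an adjusted p of 0.05 and the black lines are medians. The medians of complexes I, III, IV and V lie between 0.15 and 0.23, that of complex II at -0.09, and the 8 filled points are all above 0.

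The members' median log2 change was 0.16, against -0.01 over all tested probe sets. By complex the medians were 0.15 for complex I, -0.09 for complex II, 0.17 for complex III, 0.23 for complex IV and 0.18 for complex V. The difference between complexes was not tested. Mean signals were 484 to 763 for the genes of complex II and 30.0 to 3050 for the tested genes of complex IV. Complex IV, whose median was the highest, had no called member among its 13 tested genes, while 5 of 35 passed in complex I, 2 of 8 in complex III and 1 of 16 in complex V. Counting Ndufa4 and Ndufa4l2 with complex IV left the medians at 0.15 for complex I and 0.22 for complex IV.

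Some technical measures stand beside these changes. The arrays carry control probe sets at both ends of the GAPDH and beta-actin transcripts, and 5' signal is lost first when RNA is degraded or poorly amplified. On the log2 scale the 3' end exceeded the 5' end by 2.15 ± 0.38 in dehydrated pools and 1.78 ± 0.48 in control pools (SD, n = 5; two-sided exact permutation test, p = 0.214). The 99th percentile of the signal was 1549.9 to 1676 on dehydrated and 1524 to 1573 on control arrays. As deposited, every array has the same trimmed mean signal, and the brightest probe sets, those from a mean signal of 2000 upward, had a median log2 change of 0.21. When this ratio was added to the model, of the 8 calls only that of Atp5po held, while 62 of 76 members stayed above 0, 30 were higher at an unadjusted p under 0.05 and the members' median was 0.12. The part of RNA integrity or scaling in the members' changes was not tested beyond these values.

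In complex I, the NADH dehydrogenase, the 5 genes that rose all encode accessory subunits, the small proteins built around the catalytic core. Ndufa11, a membrane subunit at the joint with complex III in supercomplexes (Entrez Gene 301123), read 804, 741, 619, 757 and 676 on control arrays 1 to 5 and 968, 1051, 1081, 982 and 734 on dehydrated arrays 1 to 5. Its mean rose from 719 ± 72.5 to 963 ± 136 (SD over 5 pools), 1.33-fold (limma log2 change 0.41 ± 0.10 SE, adjusted p = 0.039). The groups overlapped through dehydrated 5, which lay below 3 of the 5 control arrays. Ndufb2, an accessory subunit of the membrane arm (Entrez Gene 362344), read 1136, 1216, 1148, 1242 and 1213 in control pools and 1701, 1795, 1574, 1434 and 1269.7 in dehydrated pools. It rose 1.3-fold, from 1191 ± 46.4 to 1555 ± 209 (SD over 5 pools; limma log2 change 0.37 ± 0.09 SE, adjusted p = 0.0265). The groups did not overlap, although dehydrated 5 lay just above the highest control.

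Ndufa2, an accessory subunit of the matrix arm with a thioredoxin-like fold (Entrez Gene 291660), had control signals of 686, 710.3, 639, 719 and 631 and dehydrated signals of 827, 890.3, 873, 835 and 746. The increase was 1.23-fold, from 677 ± 40.3 to 834 ± 55.8 (SD over 5 pools; limma log2 change 0.30 ± 0.07 SE, adjusted p = 0.0301), and every dehydrated array lay above every control array. Ndufb5, of the membrane arm (Entrez Gene 294964), read 1073, 951, 916, 1051 and 932 on the control arrays and 1195, 1276, 1203, 1207 and 1139 on the dehydrated ones. Its 1.22-fold increase, from 985 ± 72.2 to 1204 ± 48.8 (SD over 5 pools; limma log2 change 0.29 ± 0.07 SE, adjusted p = 0.0279), also came without overlap. Ndufb1, one of the smallest membrane arm subunits (Entrez Gene 100912357), gave 662, 645, 679, 747 and 639 in the control and 779, 908, 858, 778 and 777 in the dehydrated group. It rose 1.21-fold, from 674 ± 43.7 to 820.1 ± 60.4 (SD over 5 pools; limma log2 change 0.28 ± 0.07 SE, adjusted p = 0.048), again with the groups apart, and 3 of its dehydrated arrays lay within 3 signal units of each other.

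The catalytic core of complex I was measured by 6 genes, none of which passed (limma; 2 had an unadjusted p under 0.05, both higher). Their median log2 change was 0.02. Ndufv1, which binds NADH and the flavin, had a log2 change of -0.11 ± 0.08 (SE), Ndufs3 of -0.07 ± 0.07, and Ndufs1, which carries iron-sulfur clusters, of -0.01 ± 0.07. Ndufv2 had a log2 change of 0.06 ± 0.07, Ndufs8 of 0.14 ± 0.06 and Ndufs7, next to the quinone site, of 0.19 ± 0.06. Adjusted p for these 6 was 0.144 to 0.973. The 27 accessory subunits had a median of 0.20, 0.21 for the 9 of the matrix arm and 0.18 for the 18 of the membrane arm, and 5 of the 27 passed, 1 and 4 respectively. The difference between core and accessory subunits was not tested, and the split was made with the values known. Mean signals were 417 to 997 for the core and 82.4 to 2400 for the accessory genes, and changes went with brightness, as given below.

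Among accessory subunits that did not pass, Ndufa13, which is also the cell death regulator GRIM-19, had a log2 change of 0.31 (limma adjusted p = 0.0791), and Ndufb11 one of 0.25 (adjusted p = 0.0838). Ndufs4, a subunit needed for the NADH-binding module, had a change of similar size, 0.33 ± 0.21 (SE), but with a spread that left it far from the threshold (limma adjusted p = 0.445). Below 0 lay Ndufb6 at -0.04 and Ndufa5 at -0.10. The remaining 17 accessory subunits lay between 0.02 and 0.30. Ndufa1, whose probe set had the highest mean signal in the complex, read 2401, 2161, 2238, 2314 and 2257 in control and 2607, 2883, 2532, 2381 and 2225 in dehydrated pools, a change of 0.15 ± 0.07 (SE) that did not pass (limma adjusted p = 0.316). Its dehydrated 5 lay among the controls.

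Ndufa4 and Ndufa4l2 are a pair of which the second can replace the first in hypoxia. Ndufa4 read 1435, 1443, 1443, 1507 and 1636 on control arrays and 1858, 1653, 1837, 1480.4 and 1506 on dehydrated arrays, a log2 change of 0.15 ± 0.08 (SE) with overlapping groups (limma adjusted p = 0.321). Ndufa4l2 was dim and scattered, with 29.2, 20.3, 29, 16.9 and 50.2 in the control and 62.7, 25.9, 13.4, 9.1 and 31.7 in the dehydrated group. Its log2 change was -0.17 ± 0.35 (SE), the widest error of any tested member (limma adjusted p = 0.855), and its highest value, on dehydrated 1, and its lowest, on dehydrated 4, were in the same group.

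Complex II was the one complex with a median below 0, and none of its 4 genes passed (limma; none had an unadjusted p under 0.05). Sdha, the flavoprotein that oxidises succinate (Entrez Gene 157074), read 496, 489.7, 497, 470.3 and 453 in control pools and 450.2, 458, 487, 540.4 and 501 in dehydrated pools (log2 change 0.02 ± 0.07 SE, limma adjusted p = 0.934). Sdhb, the iron-sulfur subunit (Entrez Gene 298596), gave 771, 755, 821, 796 and 850.2 against 617, 645, 697, 800.5 and 879 (log2 change -0.14 ± 0.09 SE, limma adjusted p = 0.431). Dehydrated 1, 2 and 3 lay below every control array for Sdhb, while dehydrated 5 was the highest of all 10.

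Sdhc and Sdhd anchor the enzyme in the membrane and hold its heme. Sdhc (Entrez Gene 289217) read 605, 715, 681, 569 and 720.1 on the control arrays and 461, 422, 546, 613 and 775 on the dehydrated arrays, the lowest change of the complex (log2 change -0.25 ± 0.13 SE, limma adjusted p = 0.343). As for Sdhb, dehydrated 5 lay above every control and dehydrated 1, 2 and 3 below every control. Without dehydrated 5 it passed as lower (log2 change -0.37, limma adjusted p = 0.047), the only member to do so under any alternative, and likewise without dehydrated 5 and control 1 (log2 change -0.40, adjusted p = 0.0415). With the ratio in the model its change was -0.07 (limma adjusted p = 0.846). Sdhd (Entrez Gene 363061) read 719, 795, 783, 728 and 733 and 792, 676, 736, 734 and 727 in the same order of groups, with a log2 change of -0.04 ± 0.07 (SE, limma adjusted p = 0.825) and overlapping groups. Its second probe set went from a mean of 382 to 410.5, a log2 change of 0.10.

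**Figure D2:**
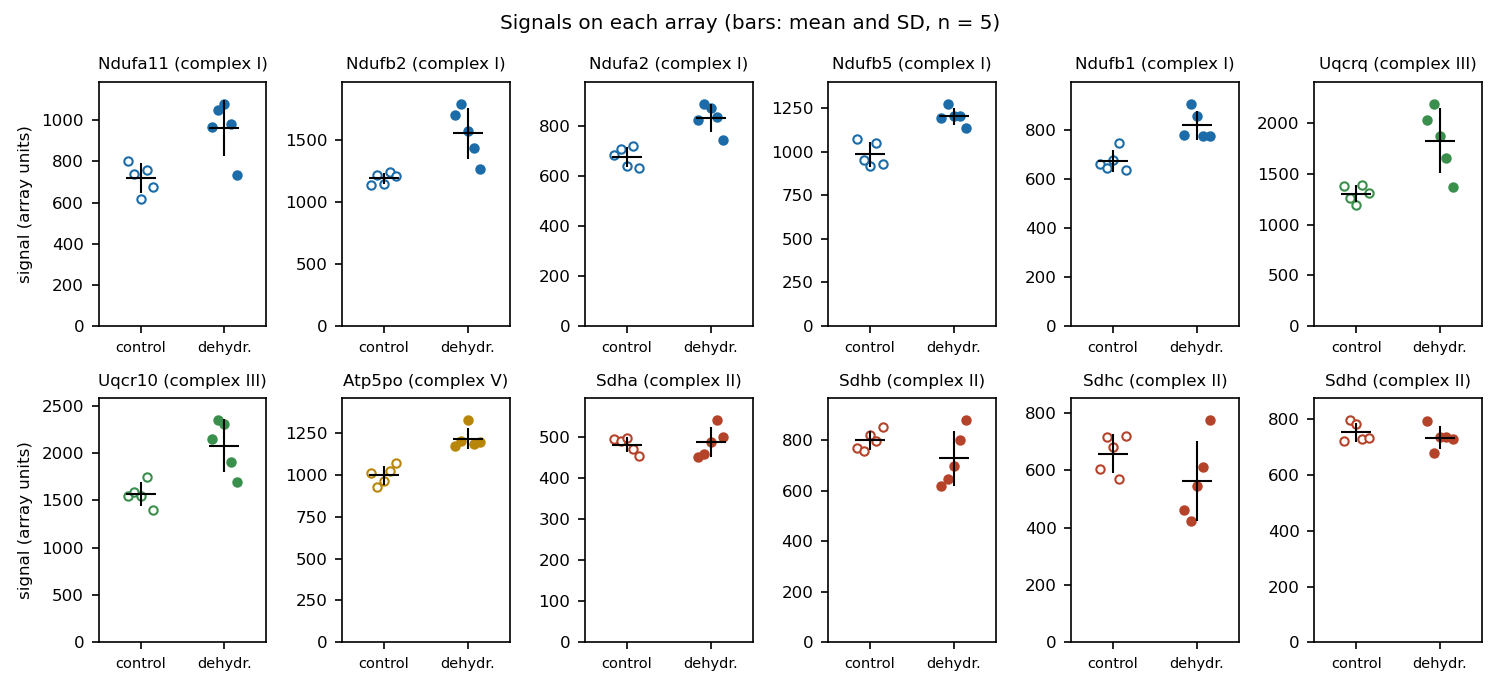
Signal on each array for the 8 subunits that passed and the 4 genes of complex II, with open points for control and filled points for dehydrated pools in order 1 to 5 from left to right; bars are mean and SD (n = 5). The rightmost filled point, dehydrated 5, is the lowest dehydrated array for Ndufa11, Ndufb2, Ndufa2, Ndufb5, Ndufb1, Uqcrq and Uqcr10 and the highest for Sdhb and Sdhc.

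In complex III, the cytochrome bc1 complex, both genes that passed encode small subunits at its edge. Uqcrq, which helps to hold cytochrome b (Entrez Gene 497902), read 1376, 1265, 1189, 1388 and 1307 on control arrays and 2030.5, 2193, 1876, 1659.7 and 1374 on dehydrated arrays. Its 1.38-fold increase was the largest of the called members, from 1305 ± 82 to 1827 ± 321 (SD over 5 pools; limma log2 change 0.47 ± 0.10 SE, adjusted p = 0.023). Dehydrated 1 to 4 lay above every control, and dehydrated 5 lay below control 1 and control 4. Uqcr10, a small subunit beside the Rieske protein (Entrez Gene 685322), had control signals of 1549, 1586, 1551, 1749 and 1402 and dehydrated signals of 2154, 2348, 2302, 1901 and 1692. It rose 1.32-fold, from 1567 ± 124 to 2079 ± 278 (SD over 5 pools; limma log2 change 0.40 ± 0.09 SE, adjusted p = 0.026), with overlap only between dehydrated 5 and control 4.

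The other small subunits, Uqcrh and Uqcr11, had log2 changes of 0.20 and 0.19 and did not pass (limma adjusted p = 0.198 and 0.178). The groups of Uqcr11 did not overlap. The redox subunits did not pass: Cyc1, cytochrome c1, had a log2 change of 0.05 ± 0.07 (SE) and Uqcrfs1, the Rieske iron-sulfur protein, of -0.01 ± 0.08. Uqcrfs1 read 984, 1251, 1113, 1092 and 1252 in control and 1202, 1051, 1264, 1068 and 1053 in dehydrated pools, each group spanning much the same range (limma adjusted p = 0.961). The core proteins Uqcrc1 and Uqcrc2, which face the matrix, had log2 changes of 0.02 and 0.14 and did not pass (limma adjusted p = 0.897 and 0.287). The second probe set of Uqcrc2, with a mean signal of 117, had a log2 change of -0.25 and did not pass.

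Complex IV, cytochrome c oxidase, had 9 of 13 tested genes at an unadjusted p under 0.05, all higher, but none that passed after adjustment over all probe sets (limma). All nuclear subunits of this complex are accessory, since the catalytic subunits are encoded by mitochondrial DNA. Cox6c, whose probe set had the highest mean signal here, read 2682, 2602, 2786, 2745 and 2862 in control and 3596, 3759, 3611, 3002 and 2857 in dehydrated pools (log2 change 0.29 ± 0.08 SE, limma adjusted p = 0.0681). Dehydrated 1 to 4 lay above all controls and dehydrated 5 just below the highest. Cox7c and Cox5b had changes of 0.28 and 0.31 with the same adjusted p of 0.073 (limma). Cox7b had a log2 change of 0.08 (limma adjusted p = 0.549), and Cox5a of 0.03, read here only by a dim probe set with a mean signal of 40.7.

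Several subunits of complex IV come as a common form and a form of muscle, testis or hypoxic tissue. Cox4i1, the common form of the subunit that senses ATP, read 2034, 1439, 2041, 2173 and 1956 in control and 2564, 2608, 2586, 2306 and 1938 in dehydrated pools (log2 change 0.32 ± 0.11 SE, limma adjusted p = 0.137), and control 2 stood well below the other controls. Cox4i2, its hypoxia-responsive form, read 23.9, 14.9, 14.3, 16.6 and 26 and 23.2, 20.8, 23.4, 17.6 and 20 and was not tested. Cox6a1, the common form, had 1571, 1394, 1521, 1588 and 1549 in control and 1744, 1841, 1715, 1799 and 1583 in dehydrated pools (log2 change 0.19 ± 0.07 SE, limma adjusted p = 0.15), and its groups overlapped only through dehydrated 5. Its muscle counterpart Cox6a2 read 11.3, 15.3, 6.9, 6.5 and 6.6 and 14.3, 1.9, 9.9, 2.1 and 1.6, untested. Cox8a read 2388, 1999, 2097, 2373 and 2152 in control and 2673, 2772, 2592, 2458 and 1952 in dehydrated pools, with dehydrated 5 the lowest of all 10 arrays (log2 change 0.17 ± 0.09 SE, limma adjusted p = 0.354).

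Cox8b, the muscle and brown fat form, read 5.6, 1.1, 2, 7.6 and 1.7 on control and 21.6, 9.7, 15.9, 12.9 and 12.4 on dehydrated arrays. Its groups did not overlap, and it passed when dim probe sets were kept in the test (limma). Detection calls were not used here, so signal and background cannot be told apart at this level. Cox7b2, another testis form, read 6, 7, 8.4, 5.1 and 2.3 in control and 11.4, 15.3, 4.5, 9.9 and 0.7 in dehydrated pools and was not tested. Cox6b1, the common form, read 1205, 967, 1199, 1381 and 1168 in control and 1331, 1461, 1382, 1370.2 and 1350.4 in dehydrated pools (log2 change 0.23 ± 0.08 SE, limma adjusted p = 0.161), where control 4 lay above 3 dehydrated arrays. Cox6b2, known from testis, had the highest log2 change of all tested members, with 24.7, 14.6, 19.9, 26.7 and 23.2 in control and 34.8, 43.5, 46.9, 38.7 and 27.3 in dehydrated pools and no overlap (log2 change 0.69 ± 0.18 SE, limma adjusted p = 0.0566). It missed the threshold, and passed with quantile or cyclic loess normalization, with median centring, with averaged probe sets and without dehydrated 5 (limma adjusted p = 0.0193 to 0.0444). Cox6b2 also passed without dehydrated 5 and control 1.

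Cox7a1, the muscle and heart form, read 24.4, 19.4, 28.3, 31.1 and 24 in control and 37.7, 39.3, 44.7, 26.4 and 41.1 in dehydrated pools (log2 change 0.49 ± 0.17 SE, limma adjusted p = 0.145). Only dehydrated 4 lay among its controls. Of 8 striated muscle markers, 6 fell below the filter and none passed (limma; 1 was higher and 1 lower at an unadjusted p under 0.05; the 2 tested were Myh1 and Acta1). Myh1, a fast myosin, had means of 800.5 ± 138 in the control and 948 ± 137 in the dehydrated group (SD, n = 5), and Acta1, skeletal actin, 46.7 ± 7.17 and 33.7 ± 10.9. The 6 markers below the filter, Ckm, Mb, Myh2, Myh4, Myl1 and Tnnt3, had group means of 4.66 to 13.3. The summed muscle markers, most of which is Myh1, ranged from 767 to 1108 on control and from 819 to 1206 on dehydrated arrays. Cox7a2l, which joins complexes III and IV into supercomplexes, read 1556, 1502, 1396, 1575 and 1597 in control and 1901, 2054, 1814, 1668 and 1472 in dehydrated pools (log2 change 0.22 ± 0.08 SE, limma adjusted p = 0.193), with dehydrated 1 to 4 above every control. The pseudogene Cox6c-ps1 had the lowest log2 change of the 76 tested members, from 27.4, 33.2, 44.1, 42 and 47.8 in control to 33.3, 30.6, 31.1, 30.1 and 30.2 in dehydrated pools (log2 change -0.26 ± 0.16 SE, limma adjusted p = 0.412), opposite in sign to Cox6c.

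Complex V, the ATP synthase, had 1 call. Atp5po encodes the subunit that ties the peripheral stalk to the catalytic head and gives the enzyme its oligomycin sensitivity (Entrez Gene 192241). It read 1008, 926, 960.0, 1021 and 1069 on control arrays and 1168, 1200.5, 1324, 1184 and 1195 on dehydrated arrays, with no overlap. The mean rose 1.22-fold, from 997 ± 55.3 to 1215 ± 62.6 (SD over 5 pools; limma log2 change 0.28 ± 0.06 SE, adjusted p = 0.0265). Unlike the other 7 called genes, its dehydrated 5 was not the lowest dehydrated array, and with the 3' to 5' ratio in the model its log2 change was 0.29 (limma adjusted p = 0.0464).

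The other stalk subunits Atp5pd and Atp5pf had log2 changes of 0.22 and 0.17 and did not pass (limma adjusted p = 0.0991 and 0.251), the groups of Atp5pd being apart. Atp5pb, the b subunit of the same stalk, read 1619, 1694, 1669, 1678 and 1942 in control and 1726, 1528, 1700.2, 1732 and 1727 in dehydrated pools, the only complex V gene below 0 (log2 change -0.03 ± 0.07 SE, limma adjusted p = 0.864). In the catalytic head, Atp5f1a and Atp5f1b, the alpha and beta subunits, had log2 changes of 0.21 ± 0.08 (SE) and 0.08 ± 0.06, and the small epsilon subunit Atp5f1e one of 0.30 ± 0.08, without overlap between its groups. Atp5f1c and Atp5f1d, the gamma and delta subunits, had log2 changes of 0.13 and 0.10. None of the 5 genes of the head and central stalk passed (limma; 2 had an unadjusted p under 0.05), and their median was 0.13.

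The 6 genes of the membrane part had a median of 0.21, and none passed (limma; 5 had an unadjusted p under 0.05). Atp5me, the e subunit that helps ATP synthase to dimerise, had the highest change of the complex, with 448, 368, 405, 421 and 356 in control and 542, 616, 490.4, 475 and 407 in dehydrated pools (log2 change 0.33 ± 0.10 SE, limma adjusted p = 0.0981). Its dimmer second probe set had a log2 change of 0.08. Atp5mf, Atp5mg, Atp5mpl and Atp5mk, small subunits of the same part, had log2 changes of 0.30, 0.20, 0.16 and 0.16. Atp5mc3, which encodes the proton-carrying c subunit, read 2457, 2361, 2383, 2476 and 2499.9 in control and 3084, 3369, 3107, 2489.6 and 2280.0 in dehydrated pools (log2 change 0.22 ± 0.09 SE, limma adjusted p = 0.242). Dehydrated 1 to 3 stood above every control, dehydrated 4 lay among the controls and dehydrated 5 below them all. The inhibitor Atp5if1, which blocks ATP hydrolysis when the membrane potential falls, had a log2 change of 0.15 ± 0.08 (SE, limma adjusted p = 0.341).

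All 8 calls depended on which pools were included. Without dehydrated 3, control 2 or control 3, none of the 76 members passed (limma; 33 had an unadjusted p under 0.05 in each case, all higher). Without dehydrated 1, control 5 or dehydrated 2, those left were Atp5po alone, Atp5po alone, and Uqcrq with Atp5po. Without dehydrated 4, Ndufb2, Uqcrq, Uqcr10 and Atp5po passed, and without control 1, Ndufa11, Ndufb5, Uqcrq and Atp5po. Without control 4, Ndufa2, Ndufb5, Ndufb1, Uqcrq and Uqcr10 passed. Leaving out dehydrated 5 raised the count to 26 members higher, the 8 among them, and 1 lower. Each of the 8 calls ended under between 8 and 13 of 22 alternatives, while all 8 changes kept their sign, with Uqcrq between 0.34 and 0.58 and Ndufb1 between 0.23 and 0.32.

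Complexes I, III, IV and V had medians above every control on dehydrated 1 to 4, and complex II did not. The median over each complex's members, as log2 level minus the control mean, was 0.18, 0.23, 0.21, 0.15 and 0.04 for complex I on dehydrated arrays 1 to 5, and 0.08, -0.05, -0.05, 0.06 and -0.01 on control arrays 1 to 5. For complex IV it was 0.32, 0.43, 0.31, 0.16 and 0.06 on dehydrated and 0.04, -0.14, -0.02, 0.11 and 0.03 on control arrays. Dehydrated 5 lay within the control range for both, as it did for complexes III and V. For complex II the same medians were -0.23, -0.23, -0.11, -0.01 and 0.10 on dehydrated and -0.06, 0.05, 0.05, -0.04 and 0.03 on control arrays, so that dehydrated 5 was the highest.

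Complex I minus complex II was 0.41, 0.45, 0.32, 0.16 and -0.06 on dehydrated arrays 1 to 5 and 0.13, -0.10, -0.10, 0.10 and -0.03 on control arrays 1 to 5. Dehydrated 1 to 4 therefore lay above all controls and dehydrated 5 among them. The log2 3' to 5' ratio was 2.27, 2.67, 2.15, 2.05 and 1.61 on the dehydrated and 2.52, 1.68, 1.51, 1.91 and 1.26 on the control arrays. Dehydrated 5, with the lowest complex I, III, IV and V medians of its group, also had its group's lowest ratio. Control 1, with the highest control ratio, had the highest control median of complex I (0.08), the lowest of complex II (-0.06) and the highest control value of complex I minus complex II (0.13), while its complex III, IV and V medians (0.02, 0.04 and 0.02) lay inside the range of the other controls. Control 4, whose ratio was the next highest, had the highest control medians of complexes III, IV and V and the next highest of complex I (0.06). On control 4, 64 of 76 members lay above their control mean, as many as on dehydrated 1. The part of the ratio in these differences was not tested.

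**Figure D3:**
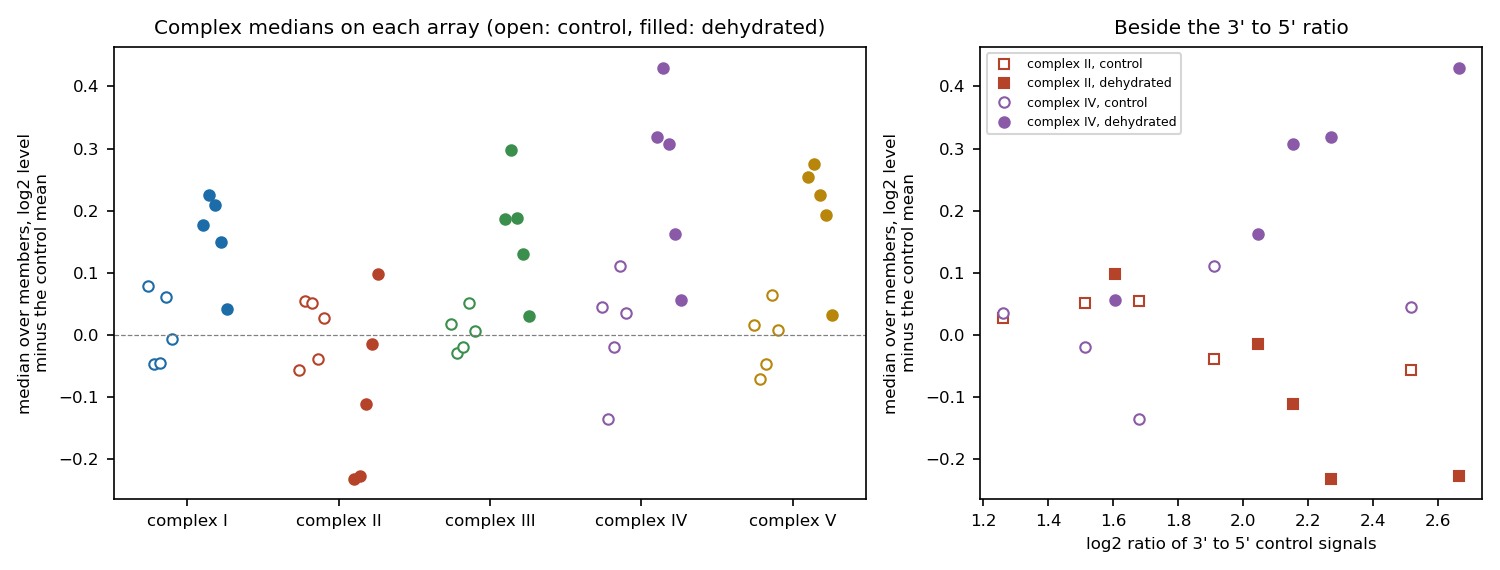
Left, median over the tested members of each complex on every array, as log2 level minus the control mean, with open points for control and filled points for dehydrated pools in order 1 to 5. Right, the medians of complexes II and IV against the log2 3' to 5' ratio of the control probe sets on the same arrays; complex IV reaches 0.43 on the dehydrated array with the highest ratio, 2.67, where complex II is at -0.23.

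Changes also went with brightness. Among all tested probe sets the median log2 change was -0.03 below a mean signal of 100, 0.03 between 500 and 1000, 0.07 between 1000 and 2000, and 0.21 from 2000 upward, and the share called higher was 0.570%, 3.63%, 8.14% and 12.9% in these bands. The share with all dehydrated arrays above all controls was 1.42% below 100, 3.32% from 100 to 500, and 6.02%, 11.8% and 10.6% in the 3 brighter bands. Among members it was 1 of 6, 0 of 9, 3 of 21, 6 of 30 and 1 of 10 in the same order. Members with a signal of 1000 to 2000, 30 in number, had a median of 0.20 and 5 were called, while the 21 between 500 and 1000 had a median of 0.09 and 3 were called. The 10 members from 2000 upward, Cox6c, Atp5mc3, Ndufa1, Cox8a, Atp5f1e, Cox7c, Cox4i1, Atp5f1b, Atp5mk and Cox7b, had a median of 0.19 and none was called, so that they lay at the level of all probe sets of that band.

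Quantile normalization, which gives every array the same distribution, brought the median of all probe sets from 2000 upward to 0.00 and that of the members there to 0.06. In the 1000 to 2000 band the members' median became 0.12. By complex it gave medians of 0.13, -0.12, 0.08, 0.12 and 0.10 for complexes I to V, and 59 of 76 members stayed above 0. Atp5f1b, Cox7b, Ndufa12, Ndufv2 and Ndufc2 went from above to below 0. The calls of Ndufa11, Ndufb2, Ndufa2, Uqcrq, Uqcr10 and Atp5po held with it, and those of Ndufb5 and Ndufb1 ended.

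**Figure D4:**
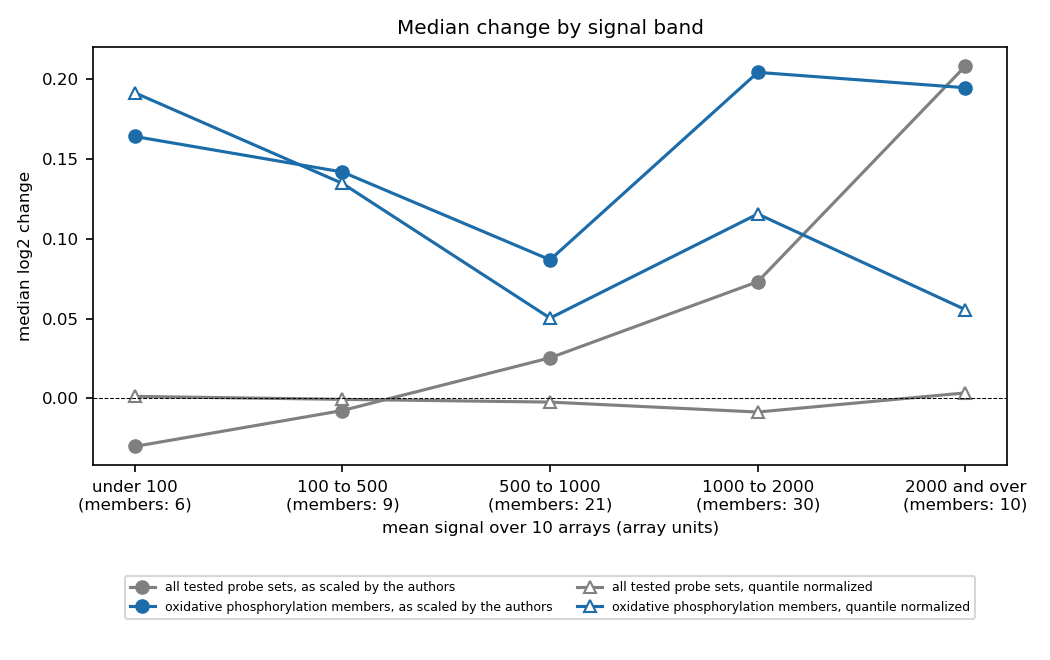
Median log2 change (dehydrated minus control) in bands of mean signal, for all tested probe sets in grey and for the oxidative phosphorylation members in blue, as scaled by the authors (filled) and after quantile normalization (open triangles). As scaled, all probe sets climb from -0.03 to 0.21 with signal, and the members lie above them except in the highest band.

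Promoter sequence is a feature that the choice of members did not use. Nuclear genes of this pathway are known targets of the factors NRF1, GABP (an ETS factor) and YY1. In RefSeq promoters of the GRCr8 build, 250 bases before to 50 after each gene's start, 71 of the 80 members were found. The NRF1 consensus, a near-palindrome searched on both strands, occurred in 13 of 71 (18.3%) against 4.71% of all 27457 promoters of that length. The ETS letters CCGGAAG, also on both strands, occurred in 20 of 71 (28.2%) against 9.22%, and the YY1 letters AANATGGC in 30 of 71 (42.3%) against 7.36%. Most YY1 matches lay after the start: in the 250 bases before it, the YY1 letters were in 9 of 71 (12.7%) against 4.32%, the NRF1 consensus in 10 (14.1%) against 4.17% and the ETS letters in 19 (26.8%) against 7.74%. In the whole window, at least 1 of the 3 was in 48 of 71 (67.6%) against 18.8%, in 6 of the 8 called members and 42 of the other 63. No complex IV promoter held the NRF1 consensus (0 of 13), while 6 of 33 did in complex I, 1 of 4 in complex II, 1 of 6 in complex III and 5 of 15 in complex V. The ETS letters end in AAG, with which the YY1 letters can begin, so these matches can share bases. The comparison with all promoters was not matched for base composition or for expression in the lobe. Whether the larger shares are particular to this pathway was not tested. A match is a description, not a site.

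Of the 8 called genes, 5 hold a match before the start, as do 26 of the other 63 members. That makes 43.7% of the 71 members, against 14.8% of all promoters. Ndufb2, Ndufb1 and Uqcr10 hold none there. The promoters of Ndufa11, Atp5po and Uqcrq, 3 of the 5, are shown as examples from complexes I, V and III. They give the 250 bases before the gene's start, 5′ to 3′ on the gene's strand, with matches in capitals. Ndufa11 lies at chr9:1637364-1637613 on the plus strand, with overlapping NRF1 matches that begin 97 and 91 bases before the start. Atp5po lies at chr11:44657484-44657733 on the minus strand, with an NRF1 match that begins 59 bases before the start. Uqcrq lies at chr10:38089979-38090228 on the minus strand, with an ETS match that begins 22 bases before the start.
Ndufa11: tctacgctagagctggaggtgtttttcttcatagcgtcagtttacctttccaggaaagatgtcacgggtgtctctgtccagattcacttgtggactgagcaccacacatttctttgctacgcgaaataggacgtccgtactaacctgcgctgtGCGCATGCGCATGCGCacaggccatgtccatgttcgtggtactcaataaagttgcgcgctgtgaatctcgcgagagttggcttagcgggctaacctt
Atp5po: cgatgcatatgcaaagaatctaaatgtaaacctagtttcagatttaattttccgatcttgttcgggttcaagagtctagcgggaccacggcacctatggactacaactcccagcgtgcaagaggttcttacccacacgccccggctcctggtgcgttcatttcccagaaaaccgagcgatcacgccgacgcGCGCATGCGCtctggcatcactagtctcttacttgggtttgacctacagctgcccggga
Uqcrq: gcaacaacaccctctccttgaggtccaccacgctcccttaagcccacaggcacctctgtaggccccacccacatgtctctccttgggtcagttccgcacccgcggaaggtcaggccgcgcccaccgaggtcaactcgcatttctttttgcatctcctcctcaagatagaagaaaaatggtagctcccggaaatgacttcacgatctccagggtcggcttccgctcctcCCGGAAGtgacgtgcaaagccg

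Other genes of mitochondrial function were counted in the same fit, in which 1.68% of all tested probe sets were called higher and 0.784% lower. Of 73 mitochondrial ribosomal protein genes, 4 rose and none fell (5.48%), with a median log2 change of 0.14. Mrpl48 rose from 377 ± 23.6 to 547 ± 63.0 (SD over 5 pools; limma log2 change 0.53 ± 0.08 SE, adjusted p = 0.00179) and Mrps6 by 0.50 (adjusted p = 0.0109), Mrps28 by 0.34 and Mrpl57 by 0.31 (limma adjusted p = 0.0493 and 0.0433). Of 35 genes of protein import and inner membrane transport, 4 rose and none fell (11.4%; median 0.06): Timm9, Tomm7 and Tomm6 of the import machinery and Vdac2, an outer membrane channel, by 0.40, 0.32, 0.32 and 0.30 (limma adjusted p = 0.0205 to 0.0453).

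Of 38 tested assembly factors of the complexes, 1 rose and none fell (2.63%, near the share of all probe sets called higher; median 0.06). It was Uqcc2, an assembly factor of complex III, from 382 ± 20.6 to 467 ± 17.4 (SD over 5 pools; limma log2 change 0.29 ± 0.07 SE, adjusted p = 0.0295). Among 25 genes of the citrate cycle and pyruvate dehydrogenase, 1 rose and none fell (4.0%), and the median was -0.01. It was Pdk4, the kinase that shuts pyruvate dehydrogenase, with a log2 change of 0.73 ± 0.11 (SE, limma adjusted p = 0.00208). None of 26 biogenesis regulators passed (limma; 1 was higher and 1 lower at an unadjusted p under 0.05), and their median was 0.00. Mterf1, a mitochondrial transcription factor, had the smallest p, with a log2 change of 0.21 ± 0.08 (SE, limma adjusted p = 0.175). Ppargc1a, the coactivator that drives mitochondrial biogenesis, named after its values were seen, had a log2 change of -0.22 (limma adjusted p = 0.376). Cytosolic ribosomal proteins, another group of bright transcripts, had 10 of 45 higher and none lower (22.2%), with a median of 0.29. That count was 5 with quantile normalization, 18 with median centring and 4 with the 3' to 5' ratio in the model. The 4 with the largest increases were Rps28, Rpl24, Rps9 and Rpl35a, by 0.50, 0.49, 0.46 and 0.46 (limma adjusted p = 0.00381 to 0.0408). These counts also depended on single pools: without 1 array, the number called higher ran from 1 (without dehydrated 3) to 32 (without dehydrated 5) for cytosolic ribosomal proteins, from 2 to 11 for mitochondrial ribosomal proteins, from 0 to 6 for import and transport and from 0 to 2 for assembly factors.

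Some markers of cell types in the lobe also differed between the groups. Of 7 tested endothelial and mural markers, Kdr, Emcn, Rgs5 and Flt1 passed, all as higher (57.1%; limma). Of all tested probe sets, 1.68% were called higher and 0.784% lower. Plvap, Pecam1 and Pdgfrb had log2 changes of 0.44, -0.01 and 0.04 and did not pass. The sum over the 7 was 839 to 1104 on control and 1294 to 1644 on dehydrated arrays. Of 8 pituicyte and astroglial markers, Slc1a3, Lhx2 and Gfap passed, all as higher (37.5%). Rax, S100b and Aqp4 had log2 changes of -0.19, -0.21 and -0.22, Gja1 and Nkx2-1 of 0.11 and 0.21, and none of these passed. The sum over this list was 4108 to 4683 on control and 4730.2 to 5412 on dehydrated arrays. Of 7 melanotroph markers, only Pcsk2 passed, as lower (14.3%). Scg2 and Oacyl had log2 changes of -0.30 and -0.54, Pomc, Drd2 and Tbx19 of -0.09, -0.08 and -0.01, and Chga of 0.12. Their sum with Pcsk2 was 6346 to 7323 on control and 5655 to 6407 on dehydrated arrays. Anterior lobe markers were present (2587 to 7973 on control, 4837 to 9424 on dehydrated arrays). Of 6 tested, only Fshb passed, as lower (16.7%), while Pou1f1 and Ghrhr fell below the filter. Tshb, Gh1, Cga, Lhb and Prl had log2 changes of 1.17, 0.38, 0.32, 0.26 and 0.005 and did not pass. The part of these cell types in the subunit changes was not tested.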

How the data were processed

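RNA from 10 pools of neurointermediate lobe was hybridised to Affymetrix Rat Genome 230 2.0 arrays, after amplification with a commercial kit, per the labels and design text. The authors deposited 1 linear intensity per probe set and array. The submitters' processing notes name GCOS 1.2; algorithm and scaling target are not given in the sources used here. The mean after trimming 2% at each end was 100.0 on every array, so no further scaling was applied and changes are relative to the average probe set. Detection calls were not used here.

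Of 31099 probe sets, 57 controls were left out. Values were taken as log2(signal + 5), which understates changes of dim genes, and the 60% with the highest mean were tested, 18625 in all. Dehydrated and control arrays were compared over all of them with limma 3.58.1 in R 4.3.3 (lmFit, eBayes with an intensity trend, two-sided, Benjamini-Hochberg adjustment, calls at 0.05). All 80 members matched the RefSeq gene table of GRCr8 by gene ID, with no symbol changed. Probe sets of these genes can also read processed pseudogenes. The 3' to 5' ratio was compared by an exact permutation test over 252 splits, whose smallest p is 0.00794. The fit was tested on simulated data. Members, gene lists, roles and motifs were chosen with earlier results of these data known. Alternatives covered normalization, pseudocount, filter, variance model, probe set choice, the ratio as a covariate and left-out arrays. Values on every array are given for called members, for the highest and lowest change and the highest signal of each complex, and for tissue isoforms; from each related list the called genes are named, up to 4, or the smallest p. Motifs were searched with Python 3.11.15.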

Additional observations from a re-analysis of the deposited data

Results flagged for a closer look

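Among 70 groups of 5 arrays (30 named members and 5 complex medians, in each condition), 5 had 1 array far from the other 4, measured as its gap to the nearest array over the whole range, with 0.71 as the limit. For independent groups of normally distributed values, not chosen by those values, chance gives about 1 such group in 20. That rate does not strictly apply here, since the groups share the same arrays and many members were named by their values. For Atp5pb, dehydrated 2 stood apart at a signal of 1528 (gap 0.853 of the range) and control 5 at 1942 (0.752). Atp5po had dehydrated 3 apart at 1324.5 (0.784), on the high side of its group. Cox4i1 had control 2 apart at 1439 (0.745), on the low side, and without it the change of Cox4i1 still did not pass. Ndufa11 had dehydrated 5 apart at 734 (0.714), the array that also lay lowest in the dehydrated group for 6 other called members.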

How the results depend on the processing

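The array numbers 1 to 5 follow the order of the samples in the series, since the labels give no replicate numbers. The pools were separate and no pairing is stated, so no paired analysis was made. The number of members called higher, 8 as reported, was 15 with each array centred on its median, 1 without the filter on dim probe sets, where Cox8b replaced all 8, 0 without an intensity trend (limma; 32 at an unadjusted p under 0.05), 1 when the 3' to 5' ratio was added to the model, and 25, with 1 lower, without dehydrated 5 and control 1. It was 7 with quantile and 6 with cyclic loess normalization, and 8 with a pseudocount of 1 or 20, the brightest 40% of probe sets, a robust variance model or averaged probe sets. With averaged probe sets Atp5po, whose other probe set is dim, did not pass (adjusted p = 0.649). Leaving out 1 array gave 0 to 26 higher and 0 to 1 lower. The medians of complexes III and V became 0.077 and 0.098 with quantile and 0.085 and 0.10 with cyclic loess normalization, a move larger than the spread between arrays. In every setting complexes I, III, IV and V had positive medians and complex II a negative one. The difference in the 3' to 5' ratio was 0.37, and 0.24 to 0.56 with 1 array left out, a choice added after the data were seen; without control 1 its exact permutation p was 0.0476. Detection calls were not used here, so how far the dim members stood above background is unknown.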
